A study of Gossypium hirsutum with 63 samples.

Results

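The transcripts described here encode enzymes that make or remove reactive oxygen in upland cotton, Gossypium hirsutum. They are the rows of the deposited expression table whose gene description contains, in any case, ascorbate peroxidase, catalase, superoxide dismutase, glutathione peroxidase, respiratory burst or thioredoxin reductase, which gave 101 of 80325 genes. Of these, 26 were ascorbate peroxidases, 8 catalases, 17 glutathione peroxidases, 24 respiratory burst oxidases (NADPH oxidases), 18 superoxide dismutases and 8 thioredoxin reductases. Upland cotton is an allotetraploid with an A and a D subgenome, and the letter and number after Gh_ in a locus name give the subgenome and chromosome. By these names 49 members lay on A chromosomes, 49 on D chromosomes and 3 on unplaced scaffolds. The descriptions name Arabidopsis counterparts, so the roles given below are those known in Arabidopsis.

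RNA was sequenced from 63 libraries of field-grown plants at the squaring stage, when the first flower buds form. The 7 genotypes included the maternal inbred A (SJ48) and the paternal inbreds B (Z98-15), C (851-2) and D (DT-8). The others were the hybrids H (A × B), M (A × C) and L (A × D). The study chose them for high, medium and low yield heterosis. All 3 hybrids therefore share the mother A. Leaf, flower buds and 1 day post anthesis ovule were sampled from each genotype in 3 replicates, described as biological, with leaves pooled over plants and buds pooled over several sizes. Expression is given in FPKM, a fragment count scaled to transcript length and to the mapped fragments of the library, so levels are per length and can be set beside each other between genes. Total FPKM per library ran from 410556 to 449250 in leaf, from 413789 to 454309 in buds and from 418915 to 477980 in ovule, and the read depth behind a value is not in the table.

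Genes annotated to photosystems and light harvesting, 229 in all, summed to 10185 to 16317 FPKM in leaf libraries, 741 to 1185 in bud libraries and 178 to 291 in ovule libraries, so the leaf label held in every library. A search for MADS-box genes by floral names, which took in AGAMOUS-like genes, gave 167. They summed to 226 to 369 FPKM in leaf, 1067 to 1926 in buds and 1258 to 1567 in ovule. The sum thus set both reproductive tissues apart from leaf, but single genes went both ways. Of 128 tested, 45 were higher and 21 lower in buds than leaf, and 34 and 28 in ovule, by the calls defined below. Of all genes 8.09% and 6.05% were so called in buds and 9.84% and 9.08% in ovule. The list searched for ovule genes held only BEL1-like genes and summed lowest in ovule, so it did not check that label. The 68 genes described by pollen or anther summed to 307 to 917 FPKM in leaf, 301 to 698 in buds and 215 to 660 in ovule, so they did not mark buds either. In L ovule replicates 2 and 3 that sum was 660 and 624, against 215 to 290 in the other 19 ovule libraries. Those 2 libraries stood apart from L ovule replicate 1 in several members too, and the differences of L in ovule are given with and without them. Leaving them out leaves 1 L ovule library, with no spread of its own. Only the size of a difference is read from that fit, and a lost call can come from fewer libraries. All leaf and bud libraries, the A ovule libraries and B ovule replicates 1 and 2 had lower base quality in the study's sequencing summary than the other ovule libraries.

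Superoxide made by respiratory burst oxidases at the plasma membrane, or leaked by chloroplasts and mitochondria, is turned into hydrogen peroxide by superoxide dismutases. Catalases in peroxisomes split hydrogen peroxide without a reductant, ascorbate peroxidases spend ascorbate on it in the cytosol, chloroplast and peroxisome, and plant glutathione peroxidases mostly draw electrons from thioredoxins, which thioredoxin reductases keep reduced. In green leaves much of this load comes from photosynthesis and photorespiration, while oxidase-made oxygen species take part in defence signalling and in the growth of cells such as root hairs, pollen tubes and cotton fibres.

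A member was taken as expressed when it exceeded 0.5 FPKM in at least 1 library, and 93 of the 101 did so. The 8 that did not were 7 respiratory burst oxidases and the ascorbate peroxidase 2 locus Gh_D04G1116. In all 63 libraries 66 members exceeded 0.5 FPKM. The map of group means shows the main division, a band of chloroplast and peroxisome enzymes that are high in leaf and a small set of oxidases that are high outside it.

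**Figure D1:**
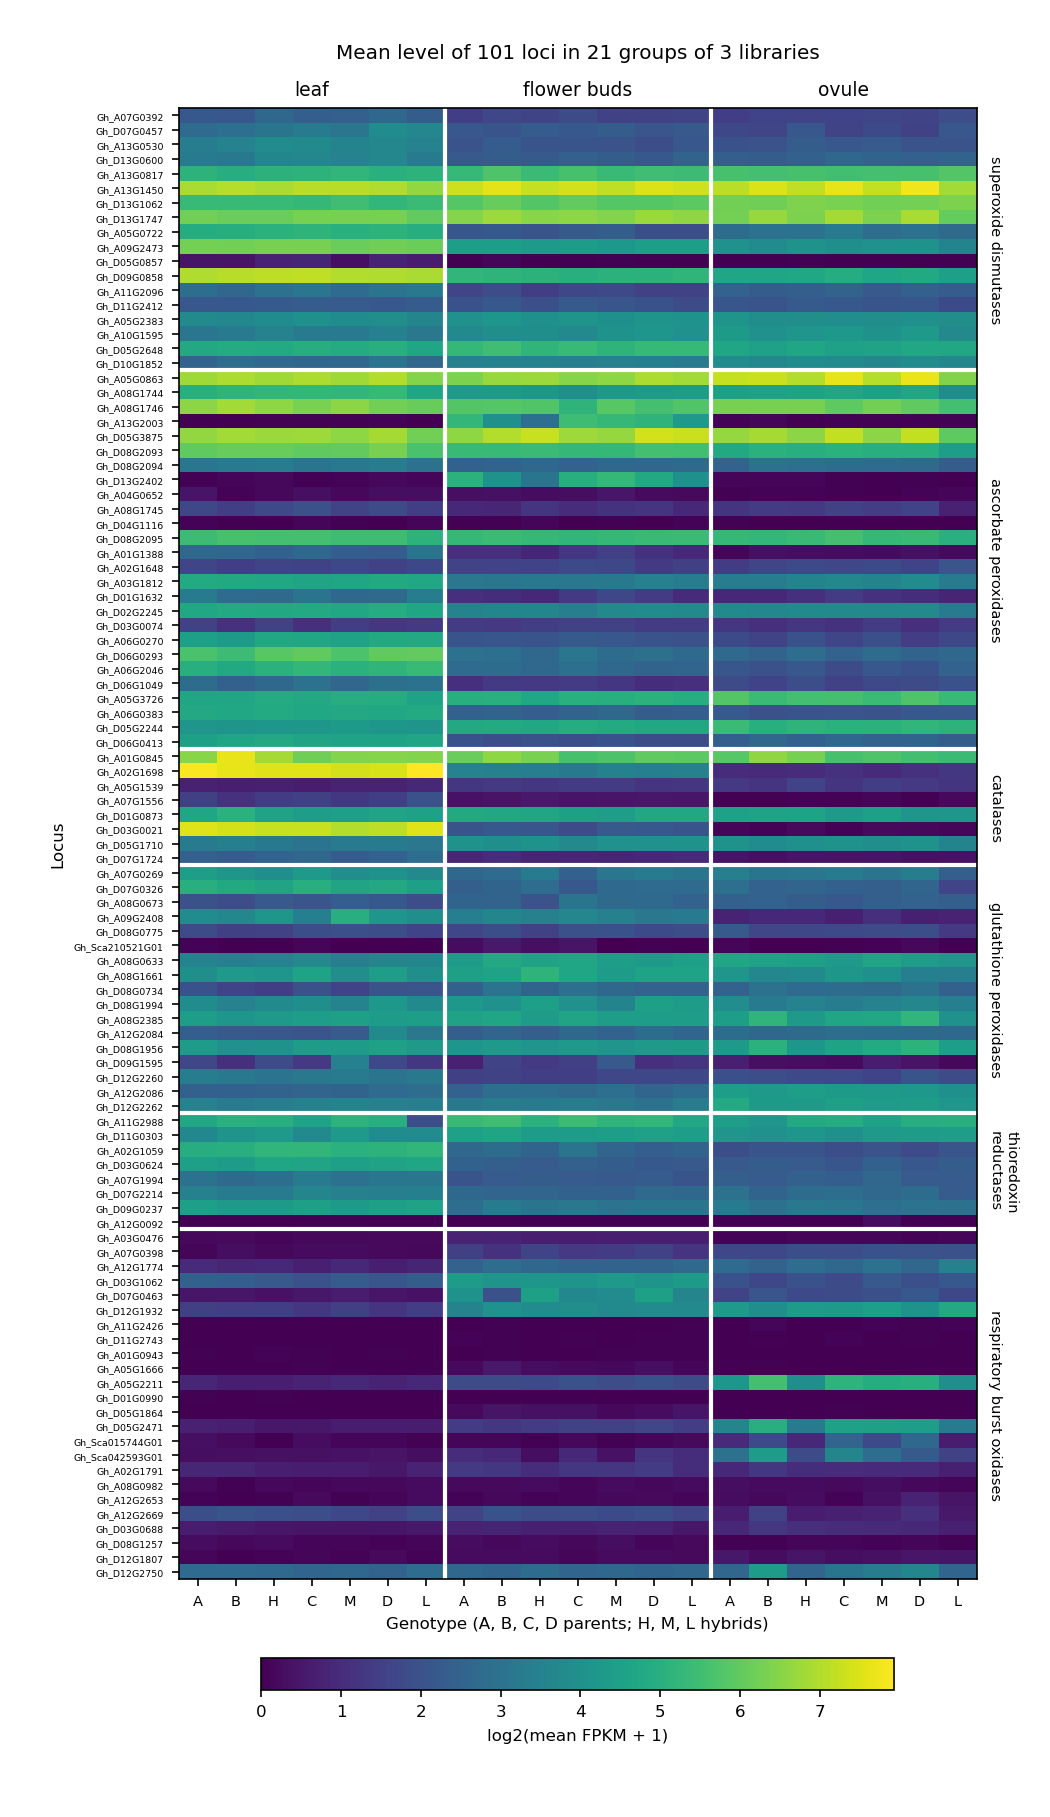
Each row is one of the 101 loci, grouped by family, and each column one of 21 groups of 3 libraries (7 genotypes in 3 tissues). Colour gives log2(mean FPKM + 1). Among the brightest are the catalase Gh_A02G1698 in leaf, at a median of 189 FPKM, and the dismutase Gh_A13G1450 in every tissue. Means of the latter were 124 FPKM in leaf, 164 in buds and 161 in ovule.

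Tissues were compared with limma on log2(FPKM + 1) over all 63 libraries, averaged over genotypes. A gene was called when its Benjamini-Hochberg adjusted p over all genes was under 0.05 and its log2 change passed 1 in either direction. Between buds and leaf 26 of 93 members were lower in buds, against 6.05% of all genes tested, and 8 were higher, against 8.09%. Between ovule and leaf 27 were lower in ovule, against 9.08% of all genes, and 10 were higher, against 9.84%. Between ovule and buds 7 were lower and 6 higher, against 7.13% and 3.58%. The share of members that were lower than leaf, 28.0% in buds and 29.0% in ovule, was thus above the background, while the share that were higher, 8.60% and 10.8%, lay near it. The median change of the members was -0.04 in buds and -0.17 in ovule relative to leaf, and that of all genes was 0.14 and 0.11. Rescaling each library by its median ratio shifted the all-gene median by -0.13 in buds and -0.12 in ovule relative to leaf. It gave 31 lower and 7 higher members in buds and 34 and 9 in ovule, where 7.87% and 5.95% of all genes were lower and higher in buds and 11.5% and 6.40% in ovule. In bulk tissue, fewer cells of a type and less RNA per cell cannot be told apart.

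Every member lower than leaf belonged to an enzyme family that removes superoxide or peroxide or reduces thioredoxin. Ascorbate peroxidases gave 10 lower members in buds and 10 in ovule, superoxide dismutases 7 and 5, catalases 3 and 4, glutathione peroxidases 3 and 5 and thioredoxin reductases 3 and 3. None of the 17 respiratory burst oxidases tested was called lower than leaf by limma, and at an unadjusted p under 0.05 there were 0 lower in buds and 3 lower in ovule. Among all members 23 were lower than leaf in both other tissues, 5 were higher than leaf in both, and 49 were called in no tissue contrast. The shares of all genes for these joint counts are not given, so no excess is read from them. The summed level of the 229 leaf genes moved with these differences, and its part in them was not tested.

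**Figure D2:**
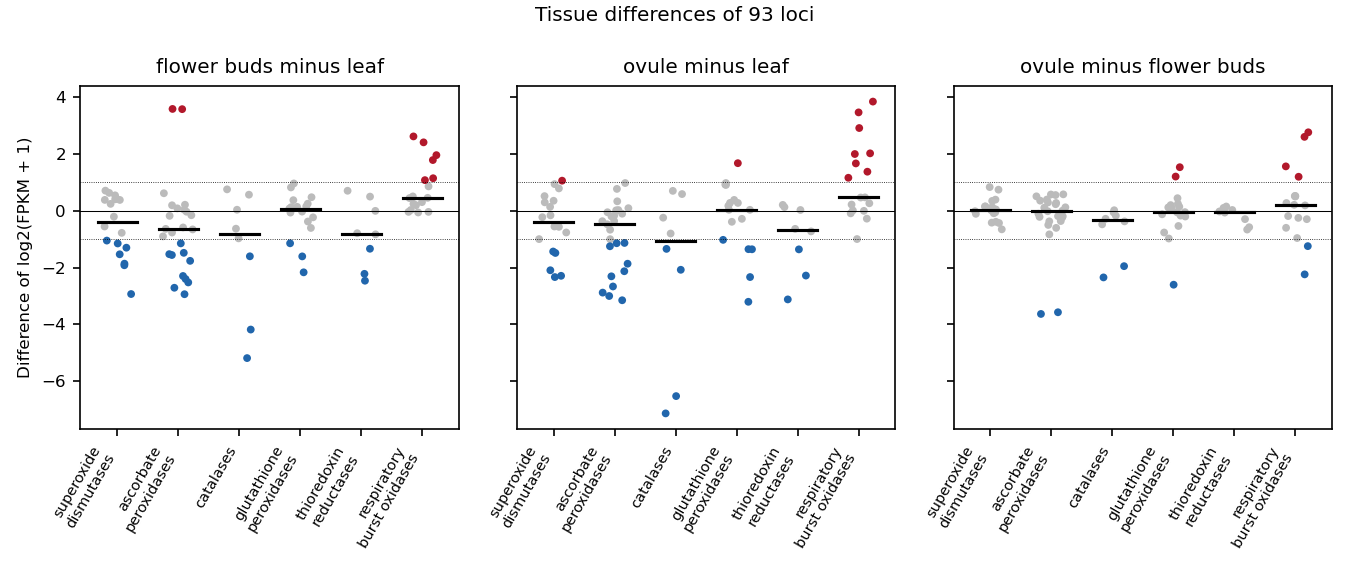
Differences of log2(FPKM + 1) between tissues for the 93 loci tested, 1 point per locus by family, with called rises in red, called falls in blue, other loci in grey, black lines at family medians and dotted lines at the threshold of 1 in each direction. The catalases Gh_D03G0021 (-7.14) and Gh_A02G1698 (-6.53) lie lowest in ovule minus leaf and the oxidase Gh_A05G2211 (3.85) highest.

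The respiratory burst oxidases were the family that was higher outside leaf. Their summed FPKM was 18.2 ± 2.07 in leaf (SD, n = 21), 68.6 ± 18.2 in buds and 101 ± 29.7 in ovule. Of 17 tested, 6 were higher in buds and 8 in ovule than in leaf, and between ovule and buds 4 were higher and 2 lower. Of the 10 members that were higher in ovule than leaf, 8 were therefore oxidases.

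Gh_A05G2211, a homologue of RbohD, the oxidase behind the oxidative burst of immune signalling in Arabidopsis, was the highest oxidase in ovule. Its FPKM was 0.519, 0.703 and 1.19 (lowest, median, highest library) in leaf, 2.14, 2.72 and 3.91 in buds, and 11.3, 26.4 and 54.5 in ovule. The 3 tissues did not overlap. The mean in ovule was 36.2-fold that in leaf, with a log2 difference of 3.85 (SE 0.056), and the bud level exceeded leaf by 1.08 (SE 0.056), a value that rescaling the libraries took to 0.93. Its counterpart on D05, Gh_D05G2471, had 0.253, 0.526 and 0.884 FPKM in leaf, 1.13, 1.77 and 2.88 in buds and 6.42, 18.9 and 33.0 in ovule. Again no ovule library overlapped another tissue, and the log2 difference from leaf was 3.47 (SE 0.060).

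A second pair was higher than leaf in both reproductive tissues. It was annotated as NADPH/respiratory burst oxidase protein D, a different description from the respiratory burst oxidase homologue D of the first pair. Gh_D12G1932 had 1.11, 1.62 and 2.13 FPKM in leaf, 10.2, 13.4 and 17.1 in buds, and 13.7, 19.1 and 31.7 in ovule, with log2 differences from leaf of 2.41 and 2.92 (SE 0.035 each). Gh_A12G1774 had 0.503, 0.766 and 1.14 in leaf, 4.0, 5.16 and 6.80 in buds and 4.55, 5.64 and 11.9 in ovule. For both loci buds and ovule overlapped, and neither tissue overlapped leaf.

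Gh_D03G1062 was instead an oxidase of buds. It had 2.37, 3.88 and 5.18 FPKM in leaf, 14.8, 17.4 and 23.1 in buds, and 2.12, 2.87 and 3.97 in ovule. Every bud library lay above every library of the other tissues, by 1.96 against leaf and 2.24 against ovule on the log2 scale (SE 0.042). It supplied 25.8% of the summed oxidase FPKM of buds. The A03 locus of the same description, Gh_A03G0476, had the same order at a much lower level, with medians of 0.130 in leaf, 0.583 in buds and 0.0727 in ovule.

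Gh_A07G0398 and Gh_D07G0463, also oxidase protein D, were near 0 in leaf, with medians of 0.139 and 0.375 FPKM. In ovule the medians were 2.78 and 2.67, and the log2 differences from leaf were 1.67 (SE 0.084) and 1.38 (SE 0.29). In buds Gh_D07G0463 spread from 1.90 to 58.4 around a median of 4.32, which is taken up below with the other members that varied among bud libraries. The scaffold locus Gh_Sca042593G01 had an ovule median of 7.16 FPKM but ran from a listed 0 to 23.4 there, so its ovule call (log2 difference from leaf 2.03, SE 0.25) covers tissues that overlap.

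RbohF, an oxidase with roles in guard cells and in lignified tissue, was described at 8 loci. The most expressed, Gh_D12G2750, had medians of 5.29 FPKM in leaf, 5.04 in buds and 6.95 in ovule, and was called in no tissue contrast. Its neighbour in name Gh_A12G2669 had medians of 2.60 in leaf, 2.40 in buds and 0.670 in ovule, a log2 difference from leaf of -0.99 (SE 0.048) that stopped just short of the threshold of 1. Both RbohB loci stayed at or below 0.161 FPKM in every library.

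Superoxide dismutases were abundant in all tissues, with a summed FPKM of 608 ± 36.2 in leaf, 515 ± 48.7 in buds and 512 ± 60.3 in ovule (SD, n = 21). Behind these like sums the forms changed places. The plastid copper/zinc form, dismutase 2, was called lower in both other tissues at 3 of 4 loci, the exception being Gh_D05G0857 (-0.55 and -0.56). Gh_D09G0858 had 93.4, 132 and 167 FPKM in leaf, 30.4, 33.2 and 39.3 in buds and 16.3, 25.8 and 31.2 in ovule, and leaf did not overlap either tissue (log2 differences -1.92 and -2.33, SE 0.049). The same held for Gh_A09G2473 (-1.86 and -2.29, SE 0.064). Gh_A05G0722 had 25.3, 31.5 and 37.3 in leaf, 2.43, 3.09 and 4.82 in buds and 3.54, 6.80 and 8.86 in ovule, a 9.58-fold mean difference between leaf and buds.

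The cytosolic copper/zinc form, dismutase 1, did not share that order. Gh_A13G1450 had 84.2, 125 and 183 FPKM in leaf, 130, 159 and 219 in buds and 80.7, 147 and 217 in ovule, all 3 tissues overlapping, with log2 differences from leaf of 0.41 and 0.36 (SE 0.057). This locus took 20.3% of the summed dismutase FPKM in leaf, 31.8% in buds and 31.4% in ovule. Gh_D13G1747 had medians of 71.2 in leaf, 93.6 in buds and 83.9 in ovule, and Gh_D13G1062, with medians of 40.1, 58.2 and 77.1, separated all 3 tissues with no overlap but reached only 0.94 (SE 0.037) in ovule against leaf.

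Of the 4 iron dismutase loci, whose proteins sit in chloroplasts, 3 were called lower than leaf in buds and 2 in ovule. Fe dismutase 2 at Gh_D07G0457 had 5.36, 7.35 and 15.3 FPKM in leaf, 2.55, 3.55 and 4.62 in buds and 1.57, 2.30 and 4.22 in ovule. Leaf did not overlap the other tissues, and the log2 differences were -1.05 and -1.43 (SE 0.066). The bud value lay at the threshold, at -0.99 without replicate 1 of each group and -0.75 in the A libraries and B replicates 1 and 2 alone. Fe dismutase 3 was called lower in buds at both of its loci, Gh_A13G0530 (-1.53, SE 0.045) and Gh_D13G0600 (-1.15, SE 0.046), and in ovule at Gh_A13G0530 (-1.48), while Gh_D13G0600 fell just short there. Gh_A07G0392, the other Fe dismutase 2, had differences of -0.77 and -0.76 and was not called. Manganese dismutase of mitochondria went the other way at Gh_D10G1852, the only dismutase called higher in ovule, with medians of 5.70 in leaf, 9.62 in buds and 12.9 in ovule (1.06 against leaf, SE 0.057).

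The largest fitted tissue difference of any member, that of Gh_D03G0021 between ovule and leaf, was in catalase. All 8 loci were described as catalase 2, the leaf peroxisomal isoform that clears photorespiratory peroxide. Summed FPKM was 503 ± 116 in leaf, 121 ± 19.98 in buds and 97.6 ± 22.8 in ovule (SD, n = 21). Gh_A02G1698 had 119, 189 and 352 FPKM in leaf, 7.50, 9.78 and 11.7 in buds and 0.573, 1.02 and 2.10 in ovule. No library overlapped between any 2 tissues, and the leaf mean was 20.5-fold that of buds and 178-fold that of ovule. Gh_D03G0021 had 90.3, 157 and 286 in leaf, 2.01, 3.01 and 4.35 in buds and between a listed 0 and 0.20 in ovule, with log2 differences from leaf of -5.19 and -7.14 (SE 0.088). In ovule it was also lower than in buds, by 1.95 on the log2 scale.

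Another catalase locus, Gh_A01G0845, was kept in all tissues. It had 70.6, 90.6 and 209 FPKM in leaf, 45.0, 60.6 and 96.7 in buds and 35.3, 52.4 and 104 in ovule, with overlap throughout and log2 differences from leaf of -0.63 and -0.80 (SE 0.043), short of the threshold. The make-up of catalase transcripts therefore differed between tissues. Gh_A02G1698 and Gh_D03G0021 held 39.5% and 31.6% of the summed catalase FPKM in leaf, and Gh_A01G0845 held 21.1% in leaf, 54.7% in buds and 61.5% in ovule. Gh_D01G0873, with medians of 22.5 in leaf, 24.3 in buds and 20.98 in ovule, came second in both reproductive tissues.

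The summed FPKM of ascorbate peroxidases was 736 ± 51.7 in leaf, 544 ± 80.7 in buds and 553 ± 103 in ovule (SD, n = 21). Ascorbate peroxidase 4, a protein of the thylakoid lumen that lacks peroxidase activity in Arabidopsis, had 32.6, 53.6 and 77.8 FPKM in leaf at Gh_D06G0293, against 5.07, 5.84 and 8.64 in buds and 3.47, 5.07 and 6.76 in ovule. Leaf stood clear of both, with log2 differences of -2.94 and -3.15 (SE 0.058), and the A06 locus Gh_A06G0270 had -2.52 and -2.88 (SE 0.062). The thylakoid-bound peroxidase at Gh_A06G0383 had 16.2, 26.3 and 34.1 in leaf, 3.29, 4.55 and 5.96 in buds and 2.23, 3.28 and 4.29 in ovule, and Gh_D06G0413 had log2 differences of -2.71 and -2.13 (SE 0.057). Ascorbate peroxidase 6 at Gh_A06G2046 was lower by 2.40 in buds and 3.0 in ovule (SE 0.058).

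Members annotated to the chloroplast did not all follow. Stromal ascorbate peroxidase Gh_A05G3726 had 21.8, 27.4 and 32.04 FPKM in leaf, 23.4, 31.4 and 36.5 in buds and 34.9, 46.4 and 56.5 in ovule. Its ovule libraries lay above all leaf libraries, at a log2 difference of 0.77 (SE 0.039) that did not reach the threshold. Gh_D05G2244, described as thylakoidal, likewise had medians of 17.3 in leaf, 27.1 in buds and 33.8 in ovule, with no overlap between leaf and the other tissues and a difference of 0.98 (SE 0.035) in ovule.

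The 3 most abundant ascorbate peroxidase loci of each tissue were of the cytosolic form, ascorbate peroxidase 1. Gh_A05G0863 had 82.1, 117 and 139 FPKM in leaf, 68.4, 94.8 and 158 in buds and 45.3, 144 and 222 in ovule. Gh_D05G3875 had 69.96, 105 and 125 in leaf, 74.0, 94.8 and 288 in buds and 38.2, 105 and 153 in ovule. Gh_A08G1746 had medians of 88.8 in leaf, 54.7 in buds and 73.5 in ovule. Libraries of the 3 tissues overlapped at the 2 chromosome 5 loci, and none of the 3 loci was called in a tissue contrast. The 2 lowest ovule values of Gh_A05G0863 and of Gh_D05G3875 were L replicates 2 and 3. Of 6 loci of peroxisomal ascorbate peroxidase 3, 4 were called lower than leaf in both tissues, among them Gh_A03G1812 with medians of 25.7 in leaf, 8.47 in buds and 10.7 in ovule. The other 2 were called in no tissue contrast, such as Gh_A02G1648 at 1.99, 1.97 and 2.19.

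Glutathione peroxidases had nearly equal sums in the 3 tissues, 178 ± 18.2 in leaf, 161 ± 18.8 in buds and 168 ± 21.7 in ovule (SD, n = 21), while single forms moved in opposite directions. Glutathione peroxidase 1, the chloroplast form, had 17.8, 27.3 and 33.3 FPKM in leaf, 2.59, 4.90 and 7.93 in buds and 0.647, 4.66 and 7.49 in ovule at Gh_D07G0326 (log2 differences -2.17 and -2.33, SE 0.084). Its A07 locus Gh_A07G0269 had 10.8, 16.0 and 23.5 in leaf, 3.01, 6.70 and 10.5 in buds and 2.48, 7.71 and 10.5 in ovule. Leaf overlapped neither tissue at either locus, but the ovule difference of Gh_A07G0269, -1.02 (SE 0.079), became -0.98 without replicate 2 and -0.91 without L ovule replicates 2 and 3.

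Glutathione peroxidase 2 at Gh_A09G2408 was low in ovule alone. It had 8.10, 14.4 and 33.9 FPKM in leaf, 6.22, 9.65 and 14.1 in buds and 0.281, 0.652 and 1.68 in ovule, and ovule overlapped neither (log2 differences -3.20 from leaf and -2.60 from buds, SE 0.081). Glutathione peroxidase 8 was the reverse. Gh_A12G2086 had 3.33, 4.91 and 6.83 in leaf, 2.23, 6.04 and 8.15 in buds and 10.9, 18.3 and 22.5 in ovule, every ovule library above all others (1.68 and 1.54, SE 0.076). Its D12 locus Gh_D12G2262 had medians of 9.77, 8.80 and 20.4, at 1.21 against buds and 0.98 against leaf (SE 0.067).

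The most abundant glutathione peroxidases over all libraries, glutathione peroxidase 6 at Gh_A08G2385 and Gh_D08G1956 and glutathione peroxidase 4 at Gh_A08G1661, were called in no tissue contrast. Gh_A08G2385 had medians of 18.8 in leaf, 21.7 in buds and 22.4 in ovule. Gh_D08G1956 had 16.7, 16.9 and 22.5, and Gh_A08G1661 had 16.6, 20.9 and 12.9.

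Thioredoxin reductases summed to 134 ± 12.1 FPKM in leaf, 83.7 ± 10.6 in buds and 66.5 ± 8.47 in ovule (SD, n = 21). The plastid reductase C, which carries its own thioredoxin domain, had 25.4, 32.8 and 44.1 in leaf, 3.10, 5.26 and 7.59 in buds and 2.08, 2.81 and 3.89 in ovule at Gh_A02G1059, and leaf lay far above both (-2.46 and -3.12, SE 0.053). Gh_D03G0624, the other reductase C, had -2.22 and -2.28 (SE 0.045), and Gh_D09G0237, a catalytic subunit of the ferredoxin-dependent enzyme, -1.34 and -1.36 (SE 0.056). The other 2 loci of that subunit, Gh_A07G1994 (-0.79 and -0.63) and Gh_D07G2214 (-0.83 and -0.72), were not called. Reductase A, which serves cytosol and mitochondria, was not called between tissues. Gh_A11G2988 had medians of 27.9 in leaf, 37.3 in buds and 27.7 in ovule, and Gh_D11G0303 had 14.8, 21.7 and 18.2.

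A chloroplast term of the deposited Gene Ontology annotation was carried by 33 members, all of them tested. Of these, 17 were lower in buds than leaf and 2 higher, and 17 were lower in ovule and 0 higher by limma (4 higher at unadjusted p under 0.05), with medians of -1.05 and -1.02 on the log2 scale. Among all 5896 genes tested with that term, 17.8% were lower in buds and 20.4% lower in ovule, and 6.04% and 7.26% were higher. Of the 60 members without the term 9 were lower in buds and 10 in ovule, against 4.95% and 8.01% of all genes without it. In the other direction 6 of them were higher in buds and 10 in ovule, against 8.28% and 10.1%. The 2 members with the term that were higher in buds were the ascorbate peroxidase 1 loci Gh_A13G2003 and Gh_D13G2402, which carry the term although ascorbate peroxidase 1 is known as a cytosolic enzyme.

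These 2 loci, Gh_A13G2003 and Gh_D13G2402, were expressed in buds only among the 3 tissues sampled, and unevenly. In leaf and ovule neither exceeded 0.221 FPKM in any library. In buds Gh_A13G2003 ran from 0.0334 to 77.1 with a median of 20.9 and Gh_D13G2402 from 0.289 to 61.4 with a median of 21.1. In replicate order Gh_A13G2003 was 0.0334, 72.4 and 37.5 in A, 1.51, 21.7 and 20.9 in B, 0.344, 74.0 and 54.0 in C, and 0.381, 77.1 and 27.3 in D. Among the hybrids it was 2.34, 4.47 and 12.5 in H, 18.03, 47.3 and 48.7 in M, and 0.0474, 1.17 and 53.3 in L. The libraries under 3 FPKM were thus replicate 1 of every parent and of H, and replicates 1 and 2 of L. Gh_D13G2402 was low in the same libraries, for example 1.32, 61.4 and 36.8 in A and 0.289, 1.11 and 43.4 in L.

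The oxidase Gh_D07G0463 took another course among the bud libraries. In replicate order it was 38.5, 5.23 and 3.52 FPKM in A, 27.2, 4.25 and 4.63 in C, 52.8, 4.32 and 8.24 in D, 58.4, 4.60 and 2.66 in H and 32.2, 3.65 and 3.44 in M. In B it was 2.11, 3.40 and 3.14, and in L 1.90, 28.6 and 3.05. The high libraries were replicate 1 of A, C, D, H and M and replicate 2 of L, and no B library was high. Without replicate 1 of each group its ovule-minus-bud difference went from -1.24 (SE 0.29) to -0.58.

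**Figure D3:**
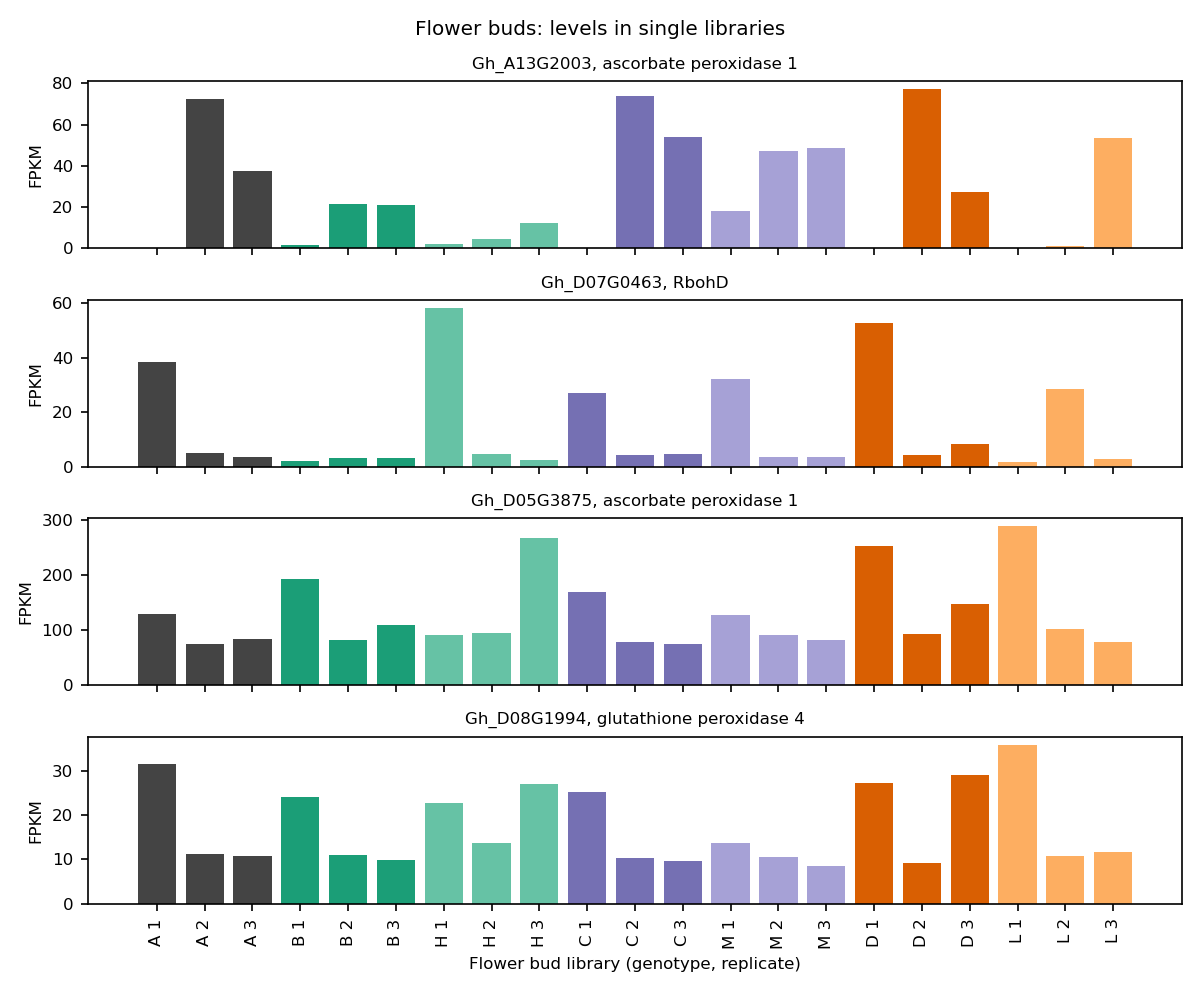
FPKM of 4 loci in each of the 21 flower bud libraries, by genotype and replicate, each bar 1 library on an axis that starts at 0. Gh_A13G2003 is under 3 in replicate 1 of every parent and of H and in replicates 1 and 2 of L, and Gh_D07G0463 is above 27 in 6 libraries. The panel title calls Gh_D07G0463 RbohD, but its description is oxidase protein D, not that of the RbohD homologues.

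The spread of these 3 loci within a genotype, as a pooled SD of log2(FPKM + 1), was 2.53 for Gh_A13G2003, 2.11 for Gh_D13G2402 and 1.63 for Gh_D07G0463. They were the 3 of 89 members with an SD above 1 in buds, a value passed by 5.35% of all genes there, and the members' median SD was 0.192 against 0.242 for all genes. Next came Gh_D08G1994, a glutathione peroxidase 4, at 0.717, with 31.7, 11.2 and 10.8 FPKM in A and 36.0, 10.9 and 11.6 in L. Gh_D05G3875 was at 0.690, with 129, 74.0 and 83.4 in A and 288, 103 and 78.3 in L. In these last 2 loci replicate 1 was the highest of A, B, C, M and L. The replicates of buds thus differed among themselves in several members, while the MADS-box sum of the same libraries ranged from 1067 to 1926 and the pollen and anther sum from 301 to 698, with the highest in C replicate 1. The part of those sums in the differences was not tested.

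In leaf the pooled SD reached at most 0.429, at Gh_D03G0021, and no member of 84 passed 1. In ovule 2 of 82 did, the scaffold oxidases Gh_Sca042593G01 (1.38) and Gh_Sca015744G01 (1.17).

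Counterparts were paired by shared description and chromosome number, a choice made after the values were seen, which gave 29 pairs of A and D loci. Of 26 pairs with a summed level of at least 1 FPKM in all 3 tissues, the A locus was above the D locus in all 63 libraries in 3 and the D locus above the A locus in 8. Near-identical copies can share reads, so the split between them is uncertain. No pair was checked by sequence, so some of these pairs may not be true counterparts. In leaf the ascorbate peroxidase 3 locus Gh_A03G1812 held 94.4% of its pair with Gh_D03G0074. Gh_A02G1648, of the same description, held 7.18% of its pair with Gh_D02G2245. By level these loci matched across the chromosome numbers instead. Leaf means were 25.9 FPKM at Gh_A03G1812 and 26.8 at Gh_D02G2245, and 2.07 at Gh_A02G1648 and 1.55 at Gh_D03G0074. The first pair counts among the 3 above and the second among the 8, and neither share is read as a bias between copies. The catalase Gh_A01G0845 held 81.6% of the pair's FPKM with Gh_D01G0873 in leaf, 73.1% in buds and 74.9% in ovule. The bud oxidase went the other way, with Gh_A03G0476 holding 3.39% of the pair with Gh_D03G1062 in buds. That pair too rests only on description and chromosome number, so its share is not read as a bias between copies. In 2 pairs the higher copy changed between tissues in every library. Glutathione peroxidase 1 had 38.2% from Gh_A07G0269 in leaf and 62.4% in ovule, and copper/zinc dismutase 3 had 64.4% from Gh_A11G2096 in leaf and 40.6% in buds.

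Genotypes were compared within each tissue with limma, first by an F-test over the 7 genotypes that also asked for genotype means more than 1 log2 unit apart. In leaf 6 of 84 members passed, against 3.03% of all genes, in buds 1 of 89, against 1.76%, and in ovule 8 of 82, against 7.35%. These shares, 7.14% in leaf, 1.12% in buds and 9.76% in ovule, rest on few members. Hybrids were then set against each parent in 6 contrasts a tissue and the fathers against the mother A in 3. All contrasts with A share its 3 libraries, so they are not independent of each other.

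In leaf 6 of 504 member tests between hybrid and parent were called (1.19%, against 0.357% of all gene tests) and 3 of 252 between parents (1.19%, against 0.794%). They fell on 6 loci. Hybrid-parent calls were on the glutathione peroxidases Gh_D09G1595 and Gh_A09G2408 in M, both above A and C, and on the reductase Gh_A11G2988 in L, below A and D. Parent calls were on the catalase Gh_A01G0845 in B and on Gh_A12G2084 and Gh_D07G0457 in D, all above A. Over all genes the share called was 0.203% for increases of M over A and 0.45% over C, 0.0183% for decreases of L against A and 0.162% against D, and 0.32% and 0.506% for increases of B and D over A. No member was called between H and either of its parents in leaf by limma, with 11 members at unadjusted p under 0.05 in H minus A and 11 in H minus B. These unadjusted counts are given without the share of all genes, so no excess is read from them.

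Catalase Gh_A01G0845 was high in the leaf of B. It was 198, 209 and 197 FPKM in B, 77.9, 105 and 91.5 in A, and 108, 121 and 118 in H, while the other genotypes ranged from 70.6 to 98.4. B lay above every other leaf library, by 1.14 over A (log2, SE 0.0997, limma adjusted p = 1.47e-06). H lay between its parents, 0.79 below B (adjusted p = 0.000466) and 0.35 above A (adjusted p = 0.208). The same order held by means in ovule, with 97.0 ± 9.09 in B, 78.1 ± 2.83 in H and 57.2 ± 2.45 in A (SD, n = 3), where B minus A was 0.75 (limma adjusted p = 0.000742) and did not pass the fold threshold. In buds B had 94.1 ± 2.79 and A 68.8 ± 14.6 (limma adjusted p = 0.0907).

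At 2 further loci the leaf of D was higher than that of A. Glutathione peroxidase 6 Gh_A12G2084 was 11.4, 12.7 and 13.6 FPKM in D, 4.27, 3.26 and 4.90 in A, and 8.79, 7.89 and 7.08 in L. The 3 L libraries sat between the parents without overlap. D exceeded A by 1.41 (SE 0.14, limma adjusted p = 4.95e-06), and L exceeded A by 0.80 (adjusted p = 0.00849) and was 0.60 below D (adjusted p = 0.0300), neither past the fold threshold. Fe dismutase 2 Gh_D07G0457 was 13.3, 15.3 and 12.2 in D, 5.36, 5.58 and 6.38 in A and 13.9, 9.19 and 11.8 in L, with D above A by 1.11 (SE 0.15, limma adjusted p = 0.000254) and L above A by 0.88 (adjusted p = 0.00793).

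**Figure D4:**
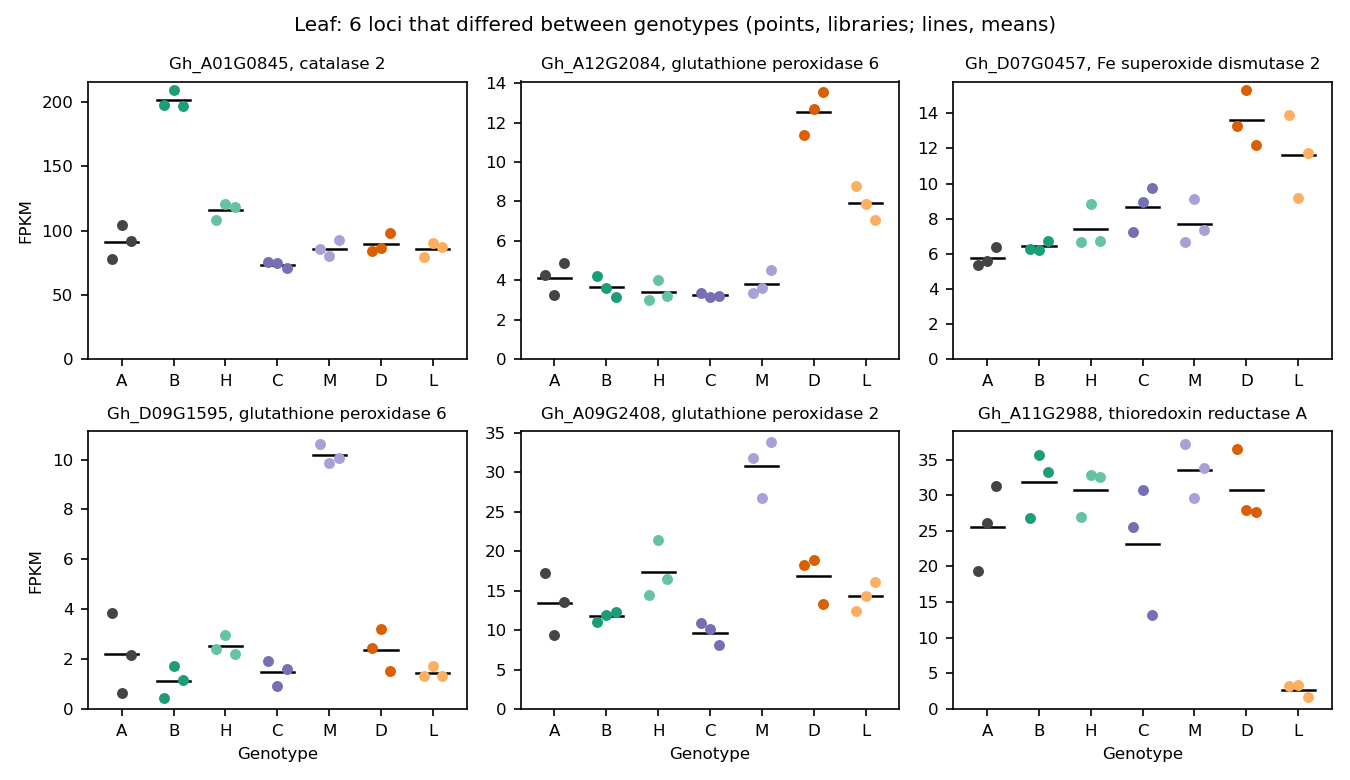
Leaf FPKM of the 6 members called between genotypes, with each replicate as a point and a line at the mean of 3. The B points of Gh_A01G0845 (197 to 209), the D points of Gh_A12G2084 (11.4 to 13.6) and the M points of Gh_A09G2408 (26.7 to 33.9) lie above all other genotypes.

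The hybrid M stood above both of its parents in leaf at 2 glutathione peroxidases. Gh_A09G2408 was 31.8, 26.7 and 33.9 FPKM in M, 17.3, 9.39 and 13.6 in A and 10.9, 10.1 and 8.10 in C. No library of either parent reached M, which exceeded A by 1.17 (SE 0.19, limma adjusted p = 0.00577) and C by 1.58 (adjusted p = 0.000133). Without A leaf replicate 2 the first difference was 0.96. In buds the same locus had means of 9.92 in M and 9.78 in A. The effect of a hybrid against its parents was compared between tissues in 9 contrasts, where 8 of 837 member tests were called, against 0.704% of all gene tests. At Gh_A09G2408 the M effect against the mean of its parents was smaller in buds than in leaf by 1.48 (SE 0.264, limma adjusted p = 0.00205), a call that was lost without replicate 2 of each group (adjusted p = 0.115) or replicate 3 (0.173).

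Gh_D09G1595, a glutathione peroxidase 6, was the other. In M it was 10.6, 9.84 and 10.1 in leaf, where A had 3.85, 0.634 and 2.18 and C had 1.92, 0.915 and 1.59. In buds M had 4.65, 2.53 and 3.79, A had 0.997, 0.610 and 0.383 and C had 2.50, 1.22 and 1.74. M lay above both parents in every library of both tissues. In leaf it exceeded A by 1.93 (SE 0.31, limma adjusted p = 0.00540) and C by 2.20 (adjusted p = 0.000703). The bud difference from A, 1.47 (SE 0.26, limma adjusted p = 0.0116), was the 1 hybrid-parent call in buds, out of 534 member tests (0.187%, against 0.276% of all gene tests, and 0.177% for increases of M over A alone). That from C was 0.72 (adjusted p = 0.236), and the call on A was lost without A bud replicate 3 (adjusted p = 0.0777), M bud replicate 1 (0.0787) or M bud replicate 3 (0.0580). No member was called between parents in buds by limma, where the background was 0.614%, with 13 members at unadjusted p under 0.05 for B minus A, 16 for C minus A and 8 for D minus A. That background is of calls, and the share of all genes at the unadjusted p is not given.

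Reductase A at Gh_A11G2988 was low in the leaf of L, at 3.18, 3.36 and 1.68 FPKM against 19.4, 26.1 and 31.3 in A and 36.5, 27.9 and 27.7 in D. No L library overlapped a parent there, and the log2 differences were -2.84 from A and -3.10 from D (SE 0.26, limma adjusted p = 5.02e-06 and 3.31e-06). In L buds it was 33.4, 39.1 and 5.90, and in L ovule 29.1, 32.1 and 29.9. Single low libraries also occurred elsewhere, at 13.2 in C leaf, 2.46 in B ovule, 10.98 in A ovule and 11.2 in M ovule. Low values were therefore common to all 3 leaf libraries of L and to single libraries of other groups. The counterpart Gh_D11G0303 did not share the pattern, with 12.8, 11.8 and 14.5 in L leaf, 10.95, 8.58 and 16.4 in A and 15.0, 12.7 and 12.4 in D (L minus A 0.15, limma adjusted p = 0.861).

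Ovule held most of the genotype calls. Between hybrid and parent 14 of 492 member tests were called (2.85%, against 1.95% of all gene tests) and between parents 4 of 246 (1.63%, against 1.22%). The hybrid-parent calls were all decreases, 3 in H against B, 3 in L against A and 8 in L against D, and the parent calls were all increases over A, 3 in B and 1 in D. The background was 0.881% for decreases of H against B, 1.44% for L against A and 2.06% for L against D, and 0.911% and 0.645% for increases of B and D over A. No member was called by limma for H minus A, M minus A, M minus C or C minus A, with 12, 15, 13 and 19 members at unadjusted p under 0.05. The shares of all genes at that p are not given for these contrasts, so no excess is read from the counts.

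Respiratory burst oxidases carried all 4 of these parent calls and 6 of the 14 hybrid-parent calls. In replicate order Gh_A05G2211 was 43.8, 54.5 and 44.1 FPKM in B ovule, 18.8, 16.0 and 15.5 in A and 14.04, 13.2 and 14.2 in H. All H libraries lay below all A libraries, and B lay far above both. B exceeded A by 1.45 (SE 0.18, limma adjusted p = 4.92e-05) and H was 1.70 below B (adjusted p = 1.70e-05), while H and A differed by -0.26 (adjusted p = 0.700). C had 44.4, 29.5 and 29.2, M 35.3, 25.7 and 26.4 and D 34.4, 28.8 and 27.5. L, at 17.7, 12.2 and 11.3, was near A and below D by 1.1 (adjusted p = 0.000763), or 0.99 without L ovule replicate 3 and 0.74 without L ovule replicates 2 and 3.

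Its counterpart Gh_D05G2471 was likewise highest in B and lowest in H and L. It was 29.96, 33.0 and 30.5 FPKM in B, 26.4, 19.8 and 19.8 in C, 24.3, 20.2 and 17.9 in D, and 25.1, 18.9 and 21.7 in M. A had 13.2, 10.3 and 10.1, H 8.05, 8.67 and 9.24 and L 11.5, 6.42 and 6.99. The fathers and M were thus higher than A, H and L in every library. H was below B by 1.74 (SE 0.18, limma adjusted p = 1.49e-05) and below the mean of its parents by 1.04 (SE 0.15, adjusted p = 0.00195, a decrease called for 0.207% of all genes). L was below D by 1.26 (limma adjusted p = 0.000282), or by 0.79 without L ovule replicates 2 and 3. M exceeded A by 0.91 (adjusted p = 0.0131), short of the fold threshold.

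RbohF at Gh_D12G2750 divided the genotypes similarly. In ovule it was 18.8, 22.7 and 16.4 FPKM in B, 12.0, 11.4 and 11.2 in D, 10.5, 8.68 and 7.78 in M and 8.60, 6.75 and 6.95 in C. A had 5.27, 5.35 and 4.83, H 5.27, 5.25 and 4.67 and L 5.13, 4.80 and 4.89. H and L sat at the level of A while M lay above it, and B and D overlapped no other genotype. B exceeded A by 1.71 (SE 0.11, limma adjusted p = 3.21e-08) and H was 1.74 below B (adjusted p = 1.33e-07). L was 1.08 below D (limma adjusted p = 2.37e-05), or 1.03 without L ovule replicates 2 and 3. D exceeded A by 1.03 (adjusted p = 2.56e-05), which was 0.99 without A ovule replicate 3 and 1.00 without D ovule replicate 1. In leaf and buds this locus stayed between 4.28 and 7.22 in all genotypes.

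**Figure D5:**
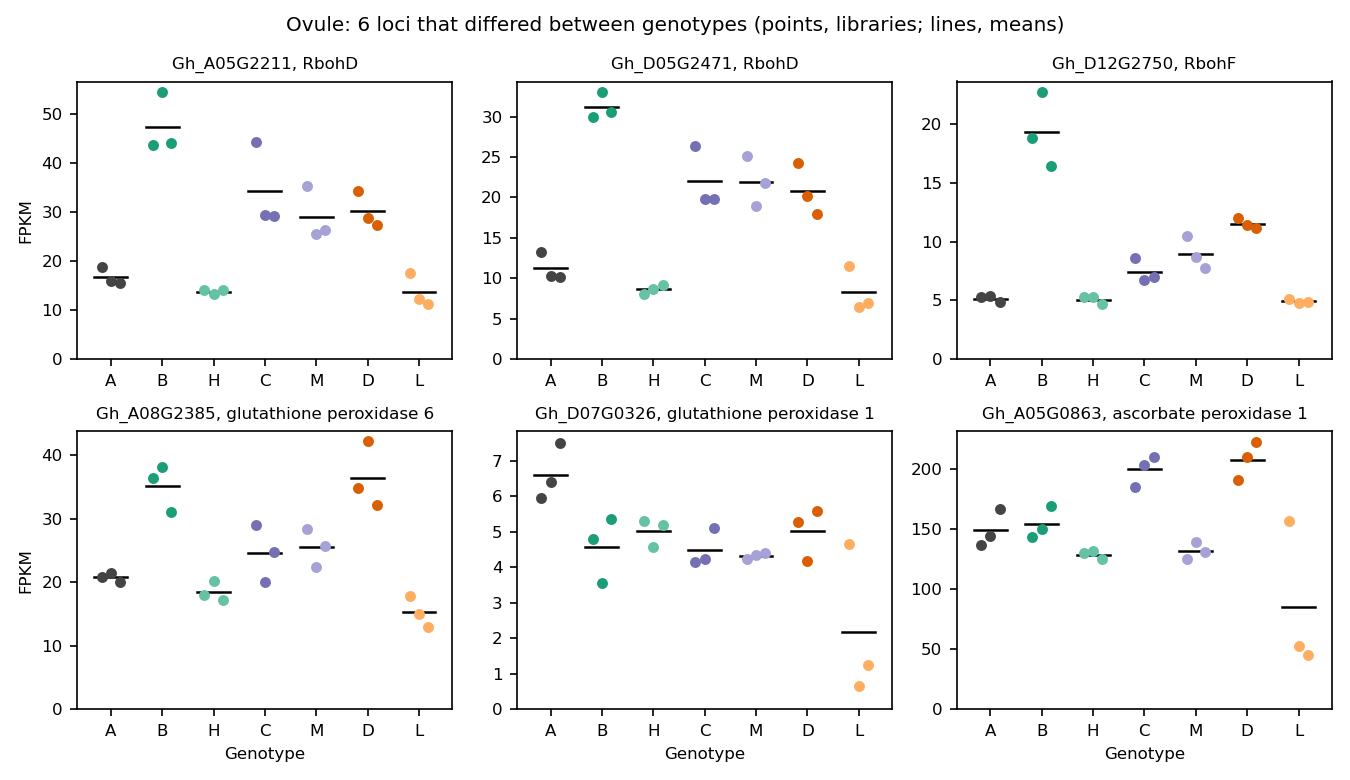
Ovule FPKM of 6 of the members called between genotypes, with each replicate as a point and a line at the mean of 3. For the oxidases Gh_A05G2211, Gh_D05G2471 and Gh_D12G2750 the B means lie highest and the points of A, H and L lowest. At Gh_A05G2211 the points of B and C overlap. The L points of Gh_A05G0863 are split between 156 and a pair at 52.4 and 45.3.

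Base quality was lower in all A ovule libraries and higher in all those of C, D, H, M and L, so only B held both kinds. Its higher-quality replicate 3 had 44.1 FPKM of Gh_A05G2211 beside 43.8 and 54.5 in the others, and 16.4 of Gh_D12G2750, the lowest of B, beside 18.8 and 22.7. With the quality group as a covariate 7 parent calls were made in ovule in place of 4, and 3 L calls against A, those of Gh_A05G0863, Gh_A07G0269 and Gh_D07G0326, were lost (limma adjusted p = 0.273, 0.215 and 0.159). Summed over the family, ovule oxidases were 153 ± 18.4 FPKM in B, 116 ± 20.5 in C, 106 ± 9.29 in D and 110 ± 3.76 in M (SD, n = 3). They were 75.5 ± 4.95 in A, 77.4 ± 4.01 in L and 68.5 ± 5.31 in H. For Gh_D05G2471 and Gh_D12G2750 the H effect against the mean of its parents was more negative in ovule than in buds, each by 1.08 on the log2 scale (limma adjusted p = 0.00128 and 4.21e-05). That of Gh_D05G2471 was not called without replicate 1 of each group (-0.92) or without replicate 2 (adjusted p = 0.0975).

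Glutathione peroxidase 6 Gh_A08G2385 was also higher in B and D than in A, H and L by level. In ovule it was 36.3, 38.1 and 31.0 FPKM in B, 34.8, 42.3 and 32.2 in D, 20.8, 21.5 and 20.01 in A, 18.01, 20.1 and 17.1 in H and 17.8, 15.0 and 13.0 in L. The fathers B and D overlapped neither A nor H nor L. L was below D by 1.2 (SE 0.14, limma adjusted p = 5.63e-05), or by 0.98, under the fold threshold, without L ovule replicates 2 and 3.

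Without L ovule replicates 2 and 3 only 1 L library is left. Of all L calls in ovule, the difference of Gh_D12G2750 from D was then the only one past the fold threshold, at -1.03. Glutathione peroxidase 1 Gh_D07G0326 was 4.66, 0.647 and 1.25 FPKM in L, 5.95, 6.40 and 7.49 in A and 5.29, 4.18 and 5.57 in D. Replicate 1 was within the range of D and replicates 2 and 3 were below every parent library. The log2 differences, -1.46 from A (SE 0.29, limma adjusted p = 0.00629) and -1.12 from D (adjusted p = 0.0142), became -0.42 and -0.08 without those 2 libraries. Gh_A07G0269 was 7.57, 2.88 and 2.48 in L, with A from 7.71 to 10.5 and D from 7.62 to 10.03, and its differences of -1.08 and -1.03 became -0.27 and -0.22.

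Cytosolic ascorbate peroxidase showed the same split. Gh_A05G0863 was 156, 52.4 and 45.3 FPKM in L ovule, 137, 144 and 166 in A and 191, 210 and 222 in D. It was called below A (-1.04, SE 0.29, limma adjusted p = 0.0248) and D (-1.51, adjusted p = 0.00265), but without L ovule replicates 2 and 3 the differences were 0.07 and -0.41. Gh_D05G3875 was 105, 41.6 and 38.2 in L and 143, 146 and 152 in D (-1.39, SE 0.25, limma adjusted p = 0.00159). L replicate 1 was here below every D library and above the other L libraries, and without L ovule replicates 2 and 3 the difference was -0.47.

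Over all 82 members tested in ovule, 37 had an unadjusted p under 0.05 in L minus A (45.1%, against 31.5% of all genes) and 41 of the 82 in L minus D (against 33.8%), with median log2 changes of -0.16 and -0.23, where the medians of all genes were 0.00 and 0.01. Without L ovule replicates 2 and 3, with 1 L library left, the members' medians were 0.03 and -0.03. Summed ascorbate peroxidase FPKM was 566, 304 and 279 in the 3 L ovule libraries and 508 to 679 in those of the other genotypes. In the same L libraries the pollen and anther sum was 290, 660 and 624 FPKM. Of its 68 genes, 8 were above and 3 below every other ovule library in both replicates 2 and 3, and 6 were listed at 0 in all ovule libraries. The share of all genes that stood apart in this way is not given, so nothing particular to the list is read from these counts. Most of that sum's rise lay in Gh_A05G0660, at 233 and 209 against at most 39.6 elsewhere in ovule, and Gh_D07G2484, at 133 and 125 against at most 2.01, both described as pollen Ole e 1 allergen and extensin family proteins. Over 6 hybrid-parent contrasts of its 44 tested genes in ovule the list had 11 higher and 3 lower calls. Of all gene tests 1.95% were called there, in either direction. The part of the list in the L differences was not tested.

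Other genes of the ascorbate and glutathione pathway, taken from lists of descriptions, were compared in the same fits. Of 21 genes of ascorbate and glutathione recycling, 6 were lower and 0 higher in buds than leaf by limma (10 higher at unadjusted p under 0.05), and 8 were lower and 1 higher in ovule. Of all genes 6.05% were lower and 8.09% higher in buds, and 9.08% and 9.84% in ovule. Monodehydroascorbate reductase 1 Gh_A01G1777, which regenerates ascorbate, had means of 95.7 FPKM in leaf, 45.1 in buds and 31.99 in ovule, while Gh_A09G1288 of the same description had 21.9, 38.8 and 44.4 and was not called (0.98 in ovule against leaf). Glutathione reductase Gh_A11G1167 had 25.5, 10.6 and 8.47, and Gh_D11G1323 had 22.9, 9.58 and 6.76. Loci described as glutathione-disulfide reductase went the other way and were not called. Their means were 23.3, 35.2 and 35.6 at Gh_D02G1229, 10.7, 15.2 and 19.1 at Gh_A10G1090, and 10.5, 17.3 and 20.2 at Gh_D10G1419. Dehydroascorbate reductase 2 Gh_D04G0580 was the 1 that was higher, with 125 in leaf, 181 in buds and 354 in ovule (log2 difference 1.49). Another locus of that enzyme, Gh_A05G3064, had 312, 322 and 158, with -0.99 in ovule against leaf.

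Of 18 genes of ascorbate and glutathione synthesis, 7 were lower in ovule than buds and 0 higher by limma (4 higher at unadjusted p under 0.05). Of all genes 7.13% were lower and 3.58% higher there. GDP-mannose epimerase, an early enzyme of ascorbate synthesis, had means of 74.8 FPKM in leaf, 173 in buds and 17.7 in ovule at Gh_A08G1909, and 27.0, 60.1 and 3.44 at Gh_D08G2275. Both were thus highest in buds and lowest in ovule, while the other 2 epimerase loci were called in no tissue contrast. Of 11 peroxiredoxins tested 2 were higher and 3 lower in buds, and 0 were higher and 3 lower in ovule than leaf by limma (7 higher at unadjusted p under 0.05). The shares of all genes were 8.09% higher and 6.05% lower in buds, and 9.84% and 9.08% in ovule. The plastid 2-cysteine peroxiredoxin B, a substrate of reductase C, had means of 171 in leaf, 37.8 in buds and 31.6 in ovule at Gh_A04G0493, and the low locus Gh_D12G2827 had 1.96, 0.95 and 3.27.

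Of 29 tested genes for alternative oxidase, ferritin and metallothionein, 12 were lower in ovule than leaf and 0 higher by limma (7 higher at unadjusted p under 0.05), and 9 were lower and 1 higher in ovule than buds. Of all genes 9.08% were lower and 9.84% higher in ovule than leaf, and 7.13% and 3.58% in ovule than buds. Metallothionein 2A Gh_D04G1170, a small metal-binding protein, had means of 270 FPKM in leaf, 693 in buds and 21.1 in ovule. Other loci of that description did not all share this order. Among them Gh_A01G1913 had 81.8, 97.3 and 78.9 and was called in no tissue contrast, and Gh_A13G1950 had 11.5, 9.77 and 4.92. Of 24 peroxisomal acyl-CoA oxidases tested, sources of hydrogen peroxide in lipid breakdown, 2 were higher and 0 lower in buds than leaf by limma (6 lower at unadjusted p under 0.05), and 1 was higher and 1 lower in ovule. These few calls stand beside all-gene shares of 8.09% higher and 6.05% lower in buds, and 9.84% and 9.08% in ovule.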

How the data were processed

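Messenger RNA of 63 libraries (7 genotypes, 3 tissues, 3 replicates) was sequenced on an Illumina platform. The authors trimmed reads with Cutadapt, aligned them to a G. hirsutum genome with HISAT, assembled and merged transcripts with StringTie, and deposited FPKM per gene as estimated with StringTie and Ballgown. No source used here names the genome build. Of the deposited table, 21 more FPKM columns match no sample of the series and were not used. Of the members, 81 are loci of the merged assembly, 8 carry a name that another locus also has, and reads shared by near-identical copies may be split between them. How many reads lie behind each value is unknown.

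FPKM are not counts, so log2(FPKM + 1) was tested with limma 3.58.1 (R 4.3.3; trended, robust variance) on genes above 0.5 FPKM in at least 1 library of the fit, 68947 over all tissues, 60031 in leaf, 63805 in buds and 59372 in ovule. Fold changes on this scale understate those of low genes. Groups come from the sample labels. One fit over 63 libraries gave the tissue contrasts and the tissue dependence of hybrid effects, and one fit of 21 libraries per tissue gave the genotype contrasts. Calls needed a Benjamini-Hochberg adjusted p under 0.05 over all genes tested and a log2 change above 1 or below -1. The study used the same fold threshold with an unadjusted p. P-values measure only the spread between these samples. The procedure was tested on simulated data with 200 changed genes.

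The members and lists were chosen with earlier results of these data known. Named genes are the 3 most abundant loci of each family, the 4 largest called rises and falls of each tissue contrast and the 3 of each genotype contrast among members whose libraries do not overlap, and all members called for tissue dependence of a hybrid effect. Other loci named were chosen after their values were seen. Alternatives were a pseudocount of 0.1, no filter, a stricter filter of 1 FPKM, rescaling by median ratio, a replicate block, fits on 2 groups, a base-quality covariate, unadjusted p, and leaving out libraries. No sequences are printed because no locus name matched the reference table used here.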

Additional observations from a re-analysis of the deposited data

Results flagged for a closer look

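At 8 loci the effect of a hybrid against the mean of its parents differed between tissues, by a limma contrast of contrasts over all 63 libraries. Over 9 such contrasts 8 of 837 member tests were called (0.956%), against 0.704% of all gene tests.

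For H the effect was more negative in ovule than in buds at the oxidases Gh_D05G2471 (difference -1.08 on the log2 scale, SE 0.194, adjusted p = 0.00128) and Gh_D12G2750 (-1.08, SE 0.153, adjusted p = 4.21e-05). That of Gh_D05G2471 was -0.92 without replicate 1 of each group and had an adjusted p of 0.0975 without replicate 2. For M the effect at the glutathione peroxidase Gh_A09G2408 was lower in buds than in leaf (-1.48, SE 0.264, adjusted p = 0.00205), and at Gh_D09G1595 it was lower in ovule than in leaf (-1.93, SE 0.309, adjusted p = 0.000320). For L the effect at the thioredoxin reductase Gh_A11G2988 was higher in ovule than in leaf (3.29, SE 0.554, adjusted p = 0.000354). Leaving out 1 replicate of each group ended the calls by limma of Gh_A09G2408 (adjusted p = 0.115 without replicate 2 and 0.173 without replicate 3), Gh_D09G1595 (0.0638 without replicate 3) and Gh_A11G2988 (0.0582 without replicate 2).

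For L the effect was also lower in ovule than in buds at Gh_D07G0326 (-1.44, SE 0.273, adjusted p = 0.000604), Gh_A05G0863 (-1.42, SE 0.288, adjusted p = 0.00113) and Gh_A07G0269 (-1.17, SE 0.255, adjusted p = 0.00223). Without L ovule replicates 2 and 3, with 1 L ovule library left, these last 3 differences were -0.40, -0.31 and -0.36. Groups of 3 libraries were not tested for single outlying samples.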

How the results depend on the processing

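Of 78 called results of single genes, 70 could be set against a filter of 1 FPKM and against no filter, and all kept their call. With a pseudocount of 0.1, 75 of 78 did so, after rescaling 67 of 70, with the base-quality group as a covariate in ovule 15 of 18, in fits on the 2 groups alone 15 of 28, and in the A libraries and B replicates 1 and 2 alone 39 of 42 tissue calls. Leaving out single libraries or replicates ended 18 of 78. Without L ovule replicates 2 and 3, with 1 L ovule library left, the called L differences in ovule fell under the fold threshold, except Gh_D12G2750 against D. That of Gh_A05G0863 in L minus A went to 0.071, which was not a call in the other direction. Replicate numbers were not taken as pairs, since not all same-numbered libraries correlated. Their median correlation was 0.0017 in leaf, 0.11 in buds (lowest -0.28, with -0.083 for other numbers) and 0.0053 in ovule, so bud libraries of a number were somewhat alike. With the replicate number as a block all 78 calls were kept, and tissue dependence had 9 calls.

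Counts of calls moved more. Hybrid-parent calls in ovule, 14, were 4 in fits on 2 groups and 9 (without L replicate 3) to 24 (without L replicate 1) with single libraries left out. In buds the 1 call was 0 in fits on 2 groups and 0 to 1 with libraries left out, and in leaf 6 calls were 5 to 7. Parent calls in ovule, 4, were 7 with the base-quality covariate, 7 with a pseudocount of 0.1 and 3 to 6 with libraries left out. The genotype F-test in ovule, 8, gave 14 with a pseudocount of 0.1 and 6 to 18 with single libraries left out (18 without L replicate 1). In buds, 1, it gave 2 with that pseudocount and 0 to 2 with libraries left out. Tissue dependence, 8, had 14, 2 and 4 calls without replicates 1, 2 and 3 of each group. Ovule against buds, 13, had 23 calls with a pseudocount of 0.1 (7 higher and 16 lower). The causes were not tested, beyond the fewer libraries of the smaller fits.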
